A study of Mus musculus with 24 samples.

Results

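The genes of voltage-gated and potassium channels were described by the histone marks listed over them in lung endothelial cells with and without Dnmt3a. Members were all protein-coding genes of chromosomes 1 to 19 in the mm10 build whose symbols start with Kcn or Cacn, or with Scn, a number and a or b. The rule found 131 genes of 20665. It uses the symbol alone and no measured value of a gene, but it was chosen with earlier results of these data known. The peaks counted for a gene lay over its body or within 5000 bp on either side, an interval called the gene's interval here.

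Endothelial cells had been sorted by flow cytometry from mouse lungs that were wild type (WT) or knocked out for Dnmt3a (KO), the gene of an enzyme that places new DNA methylation. The labels give no strain, age, sex, Cre driver or extent of the deletion, and they say nothing of which cells or for how long Dnmt3a had been missing. The 4 marks were mapped by ACT-seq, in which an antibody carries a Tn5 transposase to a mark so that the DNA beside it is cut and tagged, with yeast nuclei added as a spike-in. There were 24 samples, 3 of each genotype with each mark, and 8 lists of peaks, 1 per genotype and mark. Every comparison of WT with KO below is therefore between 2 lists with no spread between mice, no test of genotype was possible, and intervals are exact Clopper-Pearson intervals at 95% that cover counting error only.

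Voltage-gated channels open when the membrane potential changes and let potassium, sodium or calcium pass; inward rectifiers, tandem-pore channels and calcium-activated channels set the resting potential or link it to calcium and metabolism. Excitable cells such as neurons and muscle are best known for them, while endothelial cells use a smaller set, chiefly potassium channels, to hyperpolarise and to drive calcium entry. H3K27ac marks active enhancers and promoters, H3K4me3 marks promoters, H3K4me1 marks enhancers and promoter flanks, and H3K27me3 is the mark placed by Polycomb proteins at silent genes.

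The lists held 14984 to 81112 peaks, and those of WT and KO differed in size. The H3K27me3 list covered 10.1 Mb in WT and 19.2 Mb in KO, the H3K4me3 list 8.79 Mb and 12.8 Mb, the H3K27ac list 27.6 Mb and 20.2 Mb, and the H3K4me1 list 20.9 Mb and 25 Mb. As a check of the labelled cell type, 8 of 8 endothelial markers (Pecam1, Cdh5, Kdr, Tek, Tie1, Cldn5, Emcn and Egfl7) had H3K4me3, H3K27ac and H3K4me1 peaks in both genotypes. H3K27me3 peaks were listed as well over 4 of these 8 endothelial markers in WT and 5 in KO, so genes with active marks could carry them too. H3K4me3 was listed in both genotypes at 1 of 8 smooth muscle and mural markers, 1 of 6 epithelial, 1 of 6 leukocyte, 0 of 5 cardiac and 2 of 6 neuron markers. H3K27ac was listed in both at 4, 2, 2, 2 and 3 of them, with a median covered length of 4248 bp in WT and 3639 bp in KO over endothelial markers and of 0 to 361.5 bp and 0 to 486.5 bp over the other lists. Peaks at genes of other cell types were thus not at 0, and its part in the results at channel genes was not tested.

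The first comparison asked whether channel genes were active, Polycomb-marked or unmarked in each genotype, from H3K27ac and H3K27me3. Most channel genes carried H3K27me3, and in KO more of them carried it without H3K27ac. In WT 37 of 131 had H3K27me3 only (28.2%, 20.7 to 36.8%), against 7.99% of all genes. In KO 59 had H3K27me3 only (45%, 36.3 to 54%), against 13.8% of all genes. The difference between genotypes was smaller when both kept only as many of their widest peaks as the shorter list holds. H3K27me3 only was then listed at 50 channel genes in WT and 56 in KO, against 11.1% and 12.4% of all genes.

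Few channel genes had H3K27ac only, 17 in WT (13%, against 27.8% of all genes) and 11 in KO (8.4%, against 20.6%). Both marks lay over 66 in WT (50.4%, against 41.6%) and 49 in KO (37.4%, against 41.2%), and neither mark over 11 in WT (8.4%, against 22.6%) and 12 in KO (9.16%, against 24.4%). Both marks over a gene need not lie at the same place, since the peaks overlapped at 34 of the 66 genes in WT and at 28 of the 49 in KO. In sorted bulk cells a mark carried by fewer cells and a weaker mark in every cell cannot be told apart, nor can both marks in the same cell from marks in different cells.

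**Figure D1:**
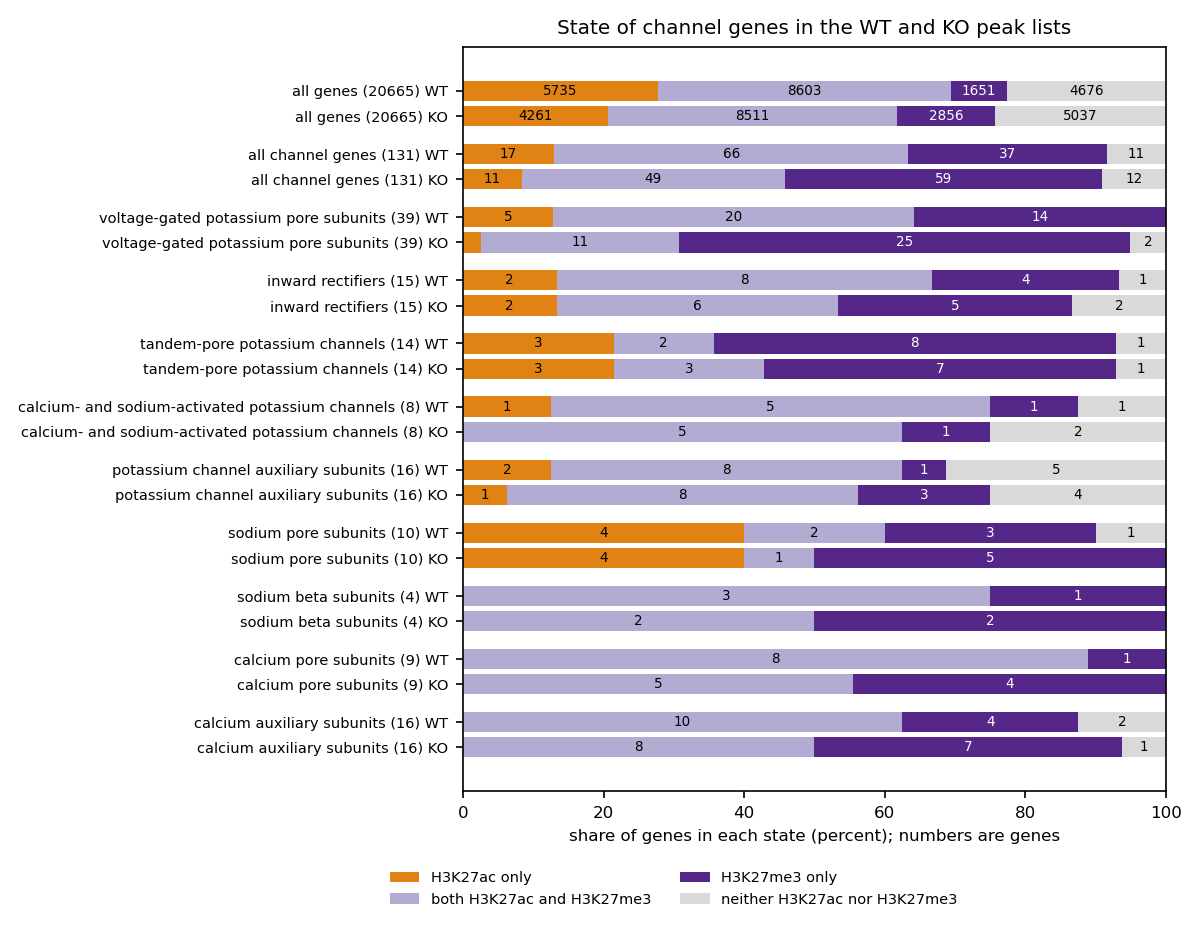
Stacked bars give the share of genes (percent) with H3K27ac only, both marks, H3K27me3 only or neither, for all genes, all channel genes and 9 role groups, with a bar for WT and a bar for KO and the number of genes printed inside. The purple bar of H3K27me3 only is longer for channel genes than for all genes in both genotypes, and among voltage-gated potassium pore subunits it holds 14 of 39 genes in WT and 25 in KO.

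State differed between the genotypes at 42 of 131 channel genes (32.1%), against 22.3% of all genes. The largest such class had both marks in WT and H3K27me3 only in KO, with 22 genes (16.8%) against 4.21% of all genes. Among its genes were Kcna2, Kcna3, Kcnb2, Kcnc1, Kcnd3, Kcng2, Kcng3, Kcnh2, Kcnq5 and Kcns3 of the voltage-gated potassium pore subunits. It also held the inward rectifiers Kcnj4 and Kcnj9, the auxiliary subunit Kcnmb4, the sodium channel genes Scn1a, Scn4b and Scn9a, and the calcium channel genes Cacna1b, Cacna1h, Cacna1i, Cacnb3 and Cacng2. Of the 22 genes 21 had more H3K27me3 in KO, all but Kcnj9. This was near the share of all channel genes with H3K27me3 in either list (102 of 112, 91.1%), against 75.9% of all genes with it. The class held 10 genes (1.83% of all genes) when only peaks of at least 300 bp were used, 13 (1.85%) when both genotypes kept only as many of their widest peaks as the shorter list holds, and 7 (1.94%) within 1000 bp of a gene end.

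The other transitions were rare. Kcnab3, Kcnh6, Kcnj16 and Kcnn4 had H3K27ac only in WT and both marks in KO, and Kcna4, Kcnk16, Kcnmb1 and Kcnv2 had H3K27ac in WT and neither mark in KO. Kcna6 and Kcnk3 had H3K27me3 only in WT and both marks in KO, Kcne3 and Scn11a neither mark in WT and both in KO, and Cacng5 and Kcnip2 H3K27me3 in KO only. Kcnh7 passed from H3K27ac only to H3K27me3 only, Kcnk7 from neither to H3K27ac only, Kcnj11 from H3K27me3 only to neither, Kcnt2 from both to neither, and Kcne2 and Kcnj1 from both to H3K27ac only.

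State was the same in both genotypes at the remaining genes. H3K27me3 alone was listed in both at 34 genes (26%, against 6.84% of all genes) and both marks at 41 (31.3%, against 34.2%). H3K27ac alone was listed in both at 8 genes (6.11%, against 16.9%), Scn7a, Kcnq1, Kcnk5, Kcnk6, Kcnj15, Scn2a, Scn3a and Scn4a. Cacng1, Kcne4, Kcnj13, Kcnmb3, Kcnrg and Kcnu1 had neither mark in either genotype.

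**Figure D2:**
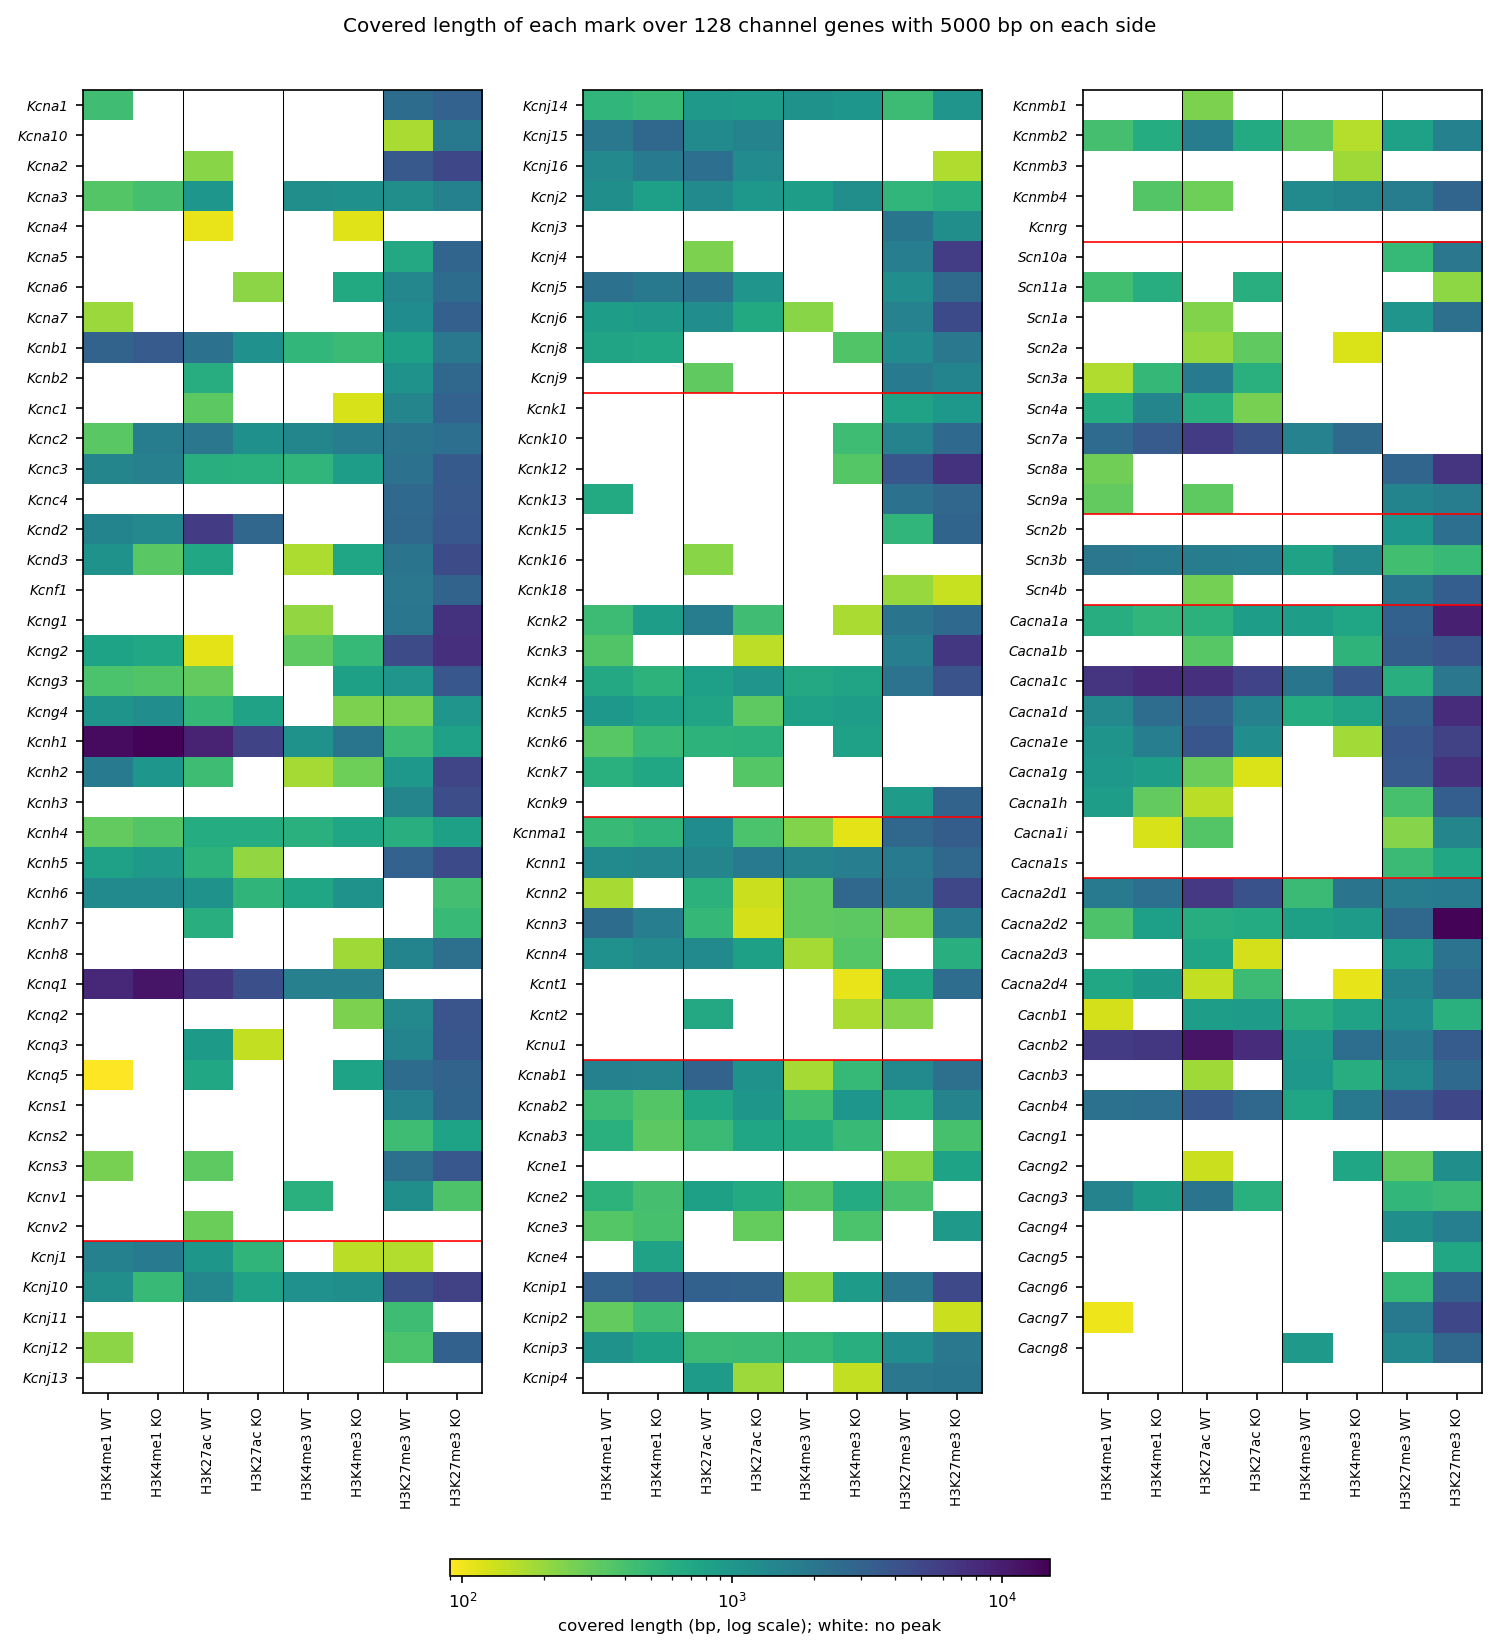
Each row is 1 of 128 channel genes, ordered by role group with red lines between groups, and each column is a mark in WT or KO; colour gives the covered length in bp on a log scale and white means no peak. The H3K27me3 columns, last in each panel, are filled for 100 of them in WT and 105 in KO, and the H3K4me3 columns for 44 and 64.

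The annotated starts of 6 channel genes show how these states sit on the sequence. RefSeq promoter windows of 300 bases (250 before the start and 50 after it, GRCm38.p6, the mm10 build) were available for 97 of the 131 genes, with 133 starts in all. The dinucleotide CG, the site that DNA methyltransferases act on, was counted because the genotypes differ in such an enzyme; CG reads the same on both strands. Over the channel gene starts the median count of CG was 9 (lower and upper quartile 5 and 23), against 14 over 20085 starts of 16457 genes. The windows are printed on the strand of the gene, 5′ to 3′, with each CG in capitals. They are the start of Scn7a, which had active marks and no H3K27me3 with few CG, that of Kcnk5, active with many CG, that of Kcnj2, with all 4 marks in both genotypes, that of Kcna3, without H3K27ac in KO, that of Kcng3, with H3K4me3 in KO only, and that of Kcne3, with 3 marks in KO only.
Scn7a: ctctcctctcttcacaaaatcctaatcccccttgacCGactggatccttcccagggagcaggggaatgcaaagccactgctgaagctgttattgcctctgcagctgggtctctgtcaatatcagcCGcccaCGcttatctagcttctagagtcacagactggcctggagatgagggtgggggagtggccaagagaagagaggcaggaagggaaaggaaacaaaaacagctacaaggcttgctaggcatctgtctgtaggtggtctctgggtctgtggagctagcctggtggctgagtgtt
Kcnk5: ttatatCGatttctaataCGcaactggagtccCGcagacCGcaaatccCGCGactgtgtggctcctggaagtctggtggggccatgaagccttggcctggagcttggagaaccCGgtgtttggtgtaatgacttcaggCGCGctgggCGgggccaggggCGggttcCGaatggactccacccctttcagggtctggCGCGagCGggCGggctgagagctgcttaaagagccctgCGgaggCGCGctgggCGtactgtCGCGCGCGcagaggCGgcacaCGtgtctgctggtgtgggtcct
Kcnj2: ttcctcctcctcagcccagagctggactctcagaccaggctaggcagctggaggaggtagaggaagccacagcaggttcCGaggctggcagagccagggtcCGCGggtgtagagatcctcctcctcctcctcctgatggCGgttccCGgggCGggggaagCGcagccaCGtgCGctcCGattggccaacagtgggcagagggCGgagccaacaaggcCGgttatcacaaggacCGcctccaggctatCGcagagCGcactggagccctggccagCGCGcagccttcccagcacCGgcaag
Kcna3: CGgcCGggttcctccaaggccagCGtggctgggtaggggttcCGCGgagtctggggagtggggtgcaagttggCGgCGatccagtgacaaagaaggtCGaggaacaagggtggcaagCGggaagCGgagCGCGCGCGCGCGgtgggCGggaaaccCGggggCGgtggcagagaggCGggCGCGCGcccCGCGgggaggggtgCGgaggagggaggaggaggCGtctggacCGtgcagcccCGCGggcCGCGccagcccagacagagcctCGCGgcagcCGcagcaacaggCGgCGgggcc
Kcng3: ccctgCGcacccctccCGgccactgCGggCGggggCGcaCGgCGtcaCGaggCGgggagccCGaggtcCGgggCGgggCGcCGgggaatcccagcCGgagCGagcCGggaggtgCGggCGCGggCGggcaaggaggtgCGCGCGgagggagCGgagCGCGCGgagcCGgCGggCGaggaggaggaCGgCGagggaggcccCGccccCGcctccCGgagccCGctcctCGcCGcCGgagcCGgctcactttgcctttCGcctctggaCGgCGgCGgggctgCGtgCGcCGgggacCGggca
Kcne3: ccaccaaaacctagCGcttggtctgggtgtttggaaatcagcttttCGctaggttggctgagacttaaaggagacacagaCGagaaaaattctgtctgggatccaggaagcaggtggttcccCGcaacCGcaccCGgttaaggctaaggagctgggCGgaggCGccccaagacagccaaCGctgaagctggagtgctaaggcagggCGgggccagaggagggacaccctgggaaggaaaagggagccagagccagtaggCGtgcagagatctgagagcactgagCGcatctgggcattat

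The window of Scn7a, at chr2:66784861-66785160 on the minus strand, held 3 CG, and 82.5% of all starts held as many or more. That of Kcnk5 (chr14:20181733-20182032, minus strand) held 26 (23.5% of starts) and that of Kcnj2 (chr11:111065914-111066213, plus strand) 18 (41.5%). The window of Kcna3 (chr3:107035912-107036211, plus strand) held 37 (7.61%), that of Kcng3 (chr17:83631846-83632145, minus strand) 49 (1.33%) and that of Kcne3 (chr7:100178433-100178732, plus strand) 12 (54.1%). CG-rich and CG-poor starts thus both occurred among the active genes. Of the 6 printed windows, those where a mark was listed in 1 genotype ranged from 12 to 49 CG. Over all channel gene starts those with H3K4me3 in KO only held 4 to 57 CG, and those with H3K27me3 in KO only 3 to 43.

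At the start of Scn7a, a sodium channel relative that senses extracellular sodium, H3K4me3 covered 1559 bp in WT and 1685 bp in KO. An H3K27ac peak of 880 bp in WT and 937 bp in KO lay over the same start. No H3K27me3 peak was listed over the gene in either genotype. Over the whole interval Scn7a had 22 H3K27ac peaks in WT and 10 in KO, which covered 6112 and 4213 bp.

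Kcnk5, a tandem-pore channel that is sensitive to pH, had H3K4me3 peaks of 626 bp in WT and 591 bp in KO over its start. H3K27ac there was 604 bp wide in WT and 318 bp in KO. An H3K4me1 peak over the start was listed in KO only, 245 bp wide. No H3K27me3 peak was listed over Kcnk5 in either genotype.

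Kcna3, the voltage-gated channel best known from T lymphocytes, had H3K4me3 (1204 bp in WT, 1157 bp in KO) and H3K27me3 (1188 bp in WT, 1599 bp in KO) over the same start in both genotypes. H3K27ac was listed there in WT only, as a peak of 596 bp (chr3:107035896-107036491) with narrower peaks of 177 and 239 bp upstream. This was the widest H3K27ac peak among the channel genes that had H3K27ac in WT only.

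Kcng3, a modulatory subunit that forms no channel alone, had H3K27me3 in both genotypes, 1033 bp in WT and 3710 bp in KO. In WT peaks of 183 and 132 bp lay upstream of the start, by 50 and 1043 bp, and another of 718 bp lay inside the gene, 4566 bp from the start. In KO a peak of 2046 bp ran across the start, and peaks of 860, 463 and 341 bp lay inside the gene, the first of them over the WT peak of 718 bp. An H3K4me3 peak of 698 bp (chr17:83631317-83632014) lay over the start in KO, with none in WT.

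Kcne3, an auxiliary subunit that holds Kcnq1 channels open in epithelia, had a single H3K4me1 peak in WT, 350 bp wide over the start. In KO the same start had H3K4me1 (399 bp), H3K27ac (304 bp), H3K4me3 (387 bp) and H3K27me3 (955 bp). The passage from neither mark to both, shared with Scn11a, was seen at 2 of 131 channel genes (1.53%) and 0.16% of all genes.

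**Figure D3:**
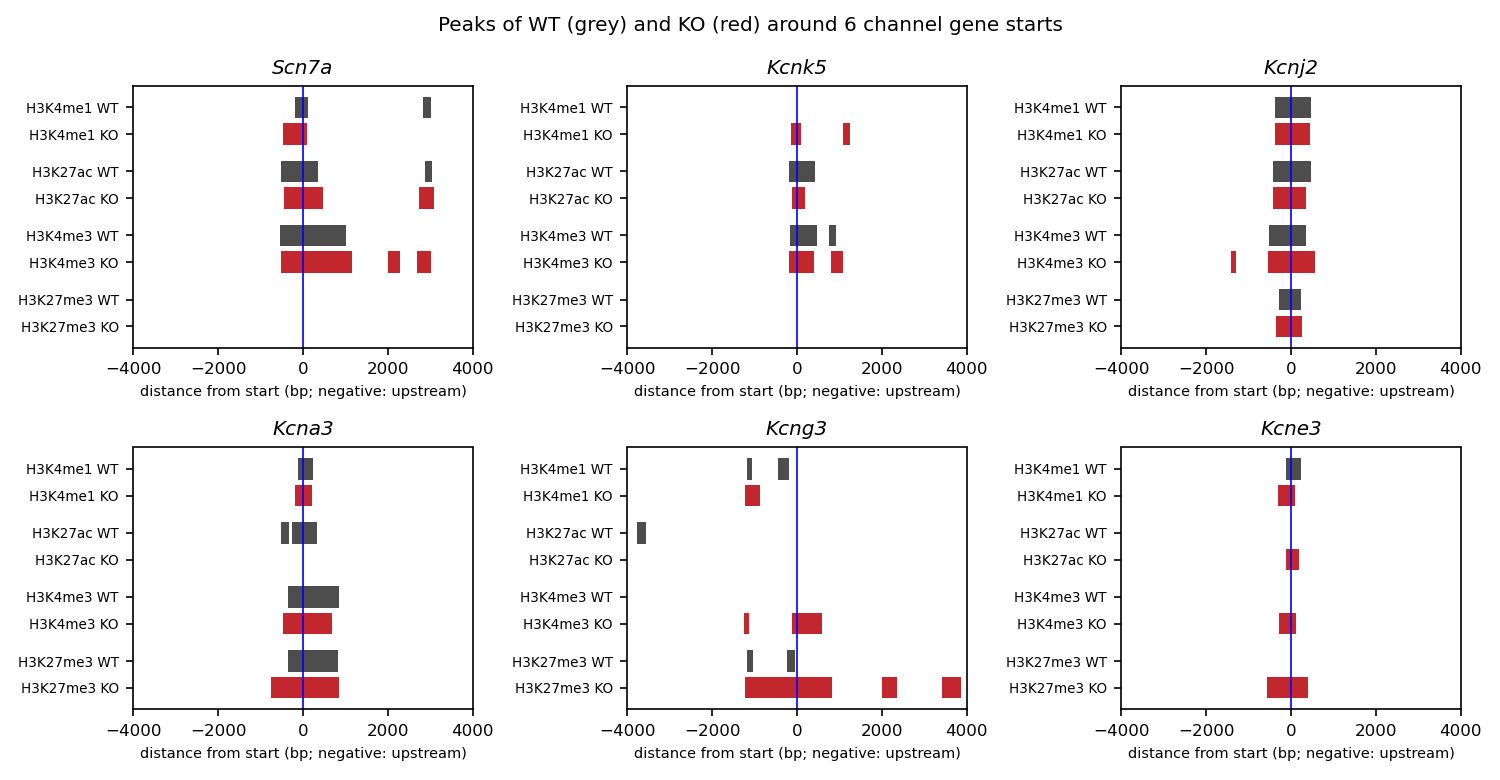
Bars show the peaks of each mark in WT (grey) and KO (red) within 4 kb of the annotated start (blue line) of Scn7a, Kcnk5, Kcnj2, Kcna3, Kcng3 and Kcne3, as distance from the start in bp along the gene's strand. Scn7a and Kcnk5 have no H3K27me3 bar, Kcna3 has H3K27ac bars in WT only, and Kcne3 has H3K4me1 alone in WT and all 4 marks in KO.

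Over all 133 channel gene starts, H3K27me3 overlapped the window at 51 in WT (38.3%) and 65 in KO (48.9%), against 31.3% and 35.9% of all starts. H3K4me3 overlapped 14 (10.5%) and 27 (20.3%), against 43.4% and 49.8%, and H3K27ac 18 (13.5%) and 13 (9.77%), against 46.7% and 44.5%. Channel gene starts with H3K27me3 in both genotypes had a median of 19 CG and those with it in neither 6. The same medians over all genes were 23 and 6, so this contrast was not limited to channel gene starts. H3K4me3 was listed in KO only at 13 starts of 12 genes (9.77%, against 7.15% of all starts), those of Cacna1b, Cacna1c, Cacnb4, Kcna6, Kcnc2, Kcne3, Kcng3, Kcng4, Kcnj8, Kcnk10, Kcnk2 and Kcnq5. At 9 of the 13 starts H3K27me3 was present in both genotypes, and over all genes at 456 of 1437 such starts. H3K4me3 was listed in WT only at 0 channel gene starts, against 0.712% of all starts.

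Among the 39 voltage-gated potassium pore subunits, the proteins that form or modify the pore of delayed rectifier and A-type channels, H3K27me3 was the main mark. It was listed in either genotype at 36 genes. It covered more bp in KO at 35 of them, against 91.1% of all channel genes and 75.9% of all genes with the mark. Summed over both genotypes, as in each such ranking within a role group that follows, its widest coverage lay over Kcng2 (4585 bp in WT, 7545 bp in KO) and Kcng1 (2008 and 7083 bp), which are modulatory subunits.

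Active marks in this group were concentrated on a few long genes. Kcnh1, a channel of the ether-a-go-go family, had 28 H3K4me1 peaks in WT and 26 in KO (12951 and 14314 bp), and 30 and 12 H3K27ac peaks (9285 and 5233 bp). Its start carried H3K4me3 of 1113 bp in WT and 1671 bp in KO, and H3K27me3 covered 461 and 795 bp, of which 201 and 263 bp lay over the start. Kcnq1, the pore of a slow repolarising current, had 8429 and 11171 bp of H3K4me1, 6573 and 4335 bp of H3K27ac, and no H3K27me3. It was the only gene of the 39 with H3K27ac only in KO.

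Kcnd2, an A-type channel, had 6010 bp of H3K27ac in WT and 2769 bp in KO beside H3K27me3 of 2660 and 3760 bp, with no H3K4me3 in either list. The widest WT-only H3K27ac peak over Kcnd2 measured 691 bp. Kcnd2 thus carried long H3K27ac and long H3K27me3 in both genotypes.

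Over Kcnh2, the rapid delayed rectifier of the heart, the WT H3K27ac peaks were 340 and 100 bp wide, and KO had none. H3K27me3 over Kcnh2 covered 984 bp in WT and 5201 bp in KO, with a KO-only peak of 1486 bp over a start (chr5:24329182-24330667).

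Kcnh6 and Kcnh7 are relatives of Kcnh2. The H3K27ac of Kcnh6 (1108 bp in WT, 529 bp in KO) and its KO-only H3K27me3 peak of 417 bp lay downstream of the gene, within 1000 bp of the neighbour Dcaf7, so the marks may belong to that gene. Kcnh7 had WT-only H3K27ac peaks of 394 and 214 bp inside the gene and a KO-only H3K27me3 peak of 464 bp, 647 bp upstream of a start.

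Among the modulatory subunits Kcnv1 and Kcnv2, Kcnv1 went the other way from most of the group, with H3K27me3 of 1162 bp in WT and 373 bp in KO and a WT-only H3K4me3 peak of 578 bp. Kcnv2 had a single WT H3K27ac peak of 286 bp in its flank. Kcna4, an A-type channel, had a single WT H3K27ac peak of 107 bp and a KO H3K4me3 of 116 bp. The H3K27ac peak of Kcna4 is near the smallest width in the lists, 95 bp in WT and 106 bp in KO.

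Further genes of this group with both marks in WT and H3K27me3 only in KO had little H3K27ac. It covered 111 bp over Kcng2, 222 bp over Kcna2, 323 bp over Kcns3, 326 bp over Kcnc1, 620 bp over Kcnb2, 714 bp over Kcnd3 and 719 bp over Kcnq5 in WT. H3K27me3 over Kcna2, a delayed rectifier of axons, measured 3588 bp in WT and 4914 bp in KO, and over the A-type gene Kcnd3 2095 and 4609 bp. Over Kcnb2 it measured 1085 and 2643 bp, over Kcnc1 1453 and 3004 bp and over Kcns3 2251 and 3748 bp.

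Among the 15 inward rectifiers, 4 had H3K27me3 only in WT and 5 in KO, and 2 in each genotype had H3K27ac only. Summed coverage with H3K27me3 was longest at Kcnj10 (4405 bp in WT, 5506 bp in KO), the rectifier of glia, at Kcnj4 (1671 and 5942 bp) and at the G-protein-gated Kcnj6 (1538 and 4765 bp). Coverage was shorter in KO at Kcnj3 (2065 and 1206 bp) and Kcnj9 (1795 and 1493 bp), which are G-protein-gated as well. Of the 13 genes with H3K27me3 in either list, 9 had more in KO and 4 had more in WT. Over all channel genes with the mark 91.1% had more in KO, and over all genes with it 75.9%.

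Summed H3K27ac was longest at Kcnj16 (2309 bp in WT, 1270 bp in KO), Kcnj5 (2189 and 1051 bp) and Kcnj15 (1288 and 1529 bp). Kcnj15 had no H3K27me3 and no H3K4me3 in either list, and its shared peaks with H3K4me1 and H3K27ac lay inside the gene and in the downstream flank. Kcnj16 had a KO-only H3K27me3 peak of 167 bp and Kcnj1, the renal rectifier, a WT-only one of 163 bp. Kcnj11, the pore of the channel that couples ATP to insulin release, had only WT H3K27me3 peaks of 290 and 154 bp.

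Among the 14 tandem-pore channels, which carry background potassium currents, 8 had H3K27me3 only in WT and 7 in KO. The longest summed coverage was at Kcnk12 (3849 bp in WT, 7027 bp in KO), Kcnk3 (1698 and 6526 bp) and Kcnk4 (2145 and 4089 bp). Kcnk4 also had H3K27ac (833 and 1050 bp), and its interval holds Catsperz, Esrra and Gpr137. Summed H3K27ac was longest at Kcnk2 (1732 and 428 bp).

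The states of Kcnk7 and Kcnk16 differed by single H3K27ac peaks, a KO-only peak of 346 bp at Kcnk7 inside the gene and a WT-only peak of 225 bp at Kcnk16. The KO peak of Kcnk7 lay on H3K4me1 that was listed in both genotypes (579 bp in WT, 383 bp in KO).

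The 8 calcium- and sodium-activated potassium channels had both marks at 5 genes in each genotype. Kcnn1, a small-conductance channel, carried H3K27ac (1448 bp in WT, 1811 bp in KO), H3K4me3 (1529 and 1666 bp) and H3K27me3 (1830 and 2669 bp), with Arrdc2 and Ccdc124 in its interval. Kcnma1, the large-conductance channel, had H3K27ac of 1250 and 385 bp and H3K27me3 of 2702 and 3290 bp. Kcnn2 had the longest H3K27me3 of the group summed over both genotypes (1997 and 5004 bp) together with H3K4me3 of 311 bp in WT and 2672 bp in KO. Kcnt2, activated by sodium, had 5 WT-only H3K27ac peaks of 100 to 204 bp and a WT-only H3K27me3 peak of 229 bp, and in KO neither mark.

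The 16 potassium channel auxiliary subunits tune the pores they bind. Kcnip1, a calcium-binding partner of A-type channels, had the longest H3K27ac (3047 bp in WT, 2965 bp in KO) and H3K27me3 (1957 and 4882 bp) summed over both genotypes. Kcnab1 had H3K27ac of 2927 and 1079 bp and Kcnmb2 of 1708 and 661 bp. Summed H3K27me3 was next longest at Kcnmb4 (1742 and 2800 bp) and Kcnip4 (1965 and 2063 bp).

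The states of small auxiliary genes differed by few peaks. Kcnmb4, the neuronal partner of Kcnma1, had a single WT H3K27ac peak of 280 bp far from its start and H3K4me3 (1193 and 1480 bp) with H3K27me3 over the start in both genotypes. Kcnmb1, the smooth muscle partner, had a single WT H3K27ac peak of 248 bp, which is counted for Kcnip1 too because the genes overlap. Kcnip2 had a KO-only H3K27me3 peak of 135 bp at a start.

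Kcnab3 and Kcne2 have close neighbours. The peaks of Kcnab3 (H3K27ac of 457 bp in WT and 742 bp in KO, H3K27me3 of 401 bp in KO) lay within 1000 bp of Cntrob or Trappc1. The H3K27ac of Kcne2 (815 bp in WT, 657 bp in KO) lay within 1000 bp of Smim11, while its WT-only H3K27me3 peak of 388 bp lay 331 bp upstream of a start. Kcne4 had no H3K27ac or H3K27me3 and a KO-only H3K4me1 peak of 791 bp.

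The 10 sodium channel pore subunits fell into separate classes. Scn2a, Scn3a, Scn4a and Scn7a had H3K27ac only in both genotypes, and the nociceptor gene Scn10a and the neuronal gene Scn8a were among those with H3K27me3 only in both. H3K27me3 covered 2810 bp in WT and 6763 bp in KO over Scn8a, and 1039 and 2271 bp over Scn1a.

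Scn3a had 1793 bp of H3K27ac in WT and 578 bp in KO, and the skeletal muscle gene Scn4a 579 and 258 bp. Neither had H3K4me3 in either list, whereas Scn7a had it in both. Scn11a had a KO-only H3K27ac peak of 606 bp (chr9:119823754-119824359) that overlapped an H3K4me1 peak of each genotype, and a KO-only H3K27me3 peak of 213 bp. Scn1a and Scn9a had WT-only H3K27ac of 235 and 319 bp.

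The 4 sodium channel beta subunits, which anchor and modulate the pore, had H3K27me3 in both genotypes, with more in KO at all 4. More H3K27me3 in KO was common to 91.1% of all channel genes with the mark, and 75.9% of all genes with it. Scn4b had 2069 bp in WT and 3232 bp in KO, and Scn2b 1023 and 2331 bp. Scn3b had the most H3K27ac (1741 and 1645 bp). The WT-only H3K27ac of Scn4b measured 264 bp.

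All 9 calcium channel pore subunits had H3K27me3 in both genotypes and more of it in KO. H3K27me3 was listed in both genotypes at 75.6% of all channel genes and 45.8% of all genes. Where listed in either, it covered more bp in KO at 91.1% of channel genes and 75.9% of all genes. Cacna1a, the channel of nerve terminals, had 3078 bp in WT and 9582 bp in KO, the L-type channel Cacna1d 3154 and 7835 bp, and the T-type channel Cacna1g 3451 and 7260 bp. Cacna1h had 399 and 3237 bp and Cacna1i, T-type as well, 227 and 1453 bp.

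The L-type channel Cacna1c was the most active of the group, with 7569 bp of H3K27ac in WT and 5388 bp in KO, 6940 and 8154 bp of H3K4me1, and 603 and 1983 bp of H3K27me3. Its widest H3K27ac peaks, 1148 bp in WT and 1538 bp in KO, lay inside the gene. H3K27ac of Cacna1e covered 3789 and 1215 bp, and that of Cacna1d 3147 and 1575 bp. The WT-only H3K27ac peaks of Cacna1b and Cacna1h summed to 338 and 153 bp.

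Among the 16 calcium channel auxiliary subunits, which carry pores to the membrane, Cacnb2 had the longest H3K27ac of any channel gene, 40 peaks and 11558 bp in WT and 20 peaks and 7887 bp in KO. H3K27me3 over its start measured 1816 bp in WT and 2592 bp in KO. Cacna2d1 had H3K27ac of 6409 and 4118 bp and Cacnb4 of 3756 and 2684 bp, both with H3K27me3. At the start of Cacna2d1 peaks of H3K27ac, H3K4me3 and H3K27me3 lay at the same place in both genotypes.

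Cacna2d2 had the largest difference in H3K27me3 of any channel gene, 4 peaks and 2715 bp in WT and 25 peaks and 14309 bp in KO. Its H3K27ac was a single peak in each genotype, at the far end of the downstream flank (616 and 648 bp inside the interval). Cacnb4 had 3458 and 4935 bp of H3K27me3 and Cacng7 1883 and 4972 bp. Cacng6 had 491 and 3077 bp and Cacng2, a partner of glutamate receptors, 308 and 1179 bp. Cacnb3 had a WT-only H3K27ac of 188 bp, and Cacng5 had KO-only H3K27me3 peaks of 507 and 206 bp on either side of a start.

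The second comparison asked how much of each gene's interval each mark covered. H3K27me3 covered more bp in KO at 102 of the 112 channel genes that had it in either list (91.1%, 84.2 to 95.6%), against 75.9% of all genes. Over the 99 genes with it in both lists the median ratio of KO to WT was 1.86 (quartiles 1.41 and 2.96). Over all genes with it in both lists the median ratio was 1.4 (quartiles 1.03 and 2.13). Of the 99 channel genes 25 had at least 3 times as much in KO, a count that was not made over all genes. Summed over the 131 genes the coverage was 159 kb in WT and 327 kb in KO, from 267 peaks of 594 bp on average and 410 peaks of 800 bp.

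The highest ratios were 11.2 at Kcna10 (171 and 1908 bp), 8.11 at Cacna1h, 8.01 at Kcnj12 (383 and 3068 bp), 7.06 at Kcnn3 and 6.4 at Cacna1i, genes with little H3K27me3 in WT. Genes with longer coverage in WT reached ratios such as 5.29 (Kcnh2) and 5.27 (Cacna2d2). Less coverage in KO was found at 10 genes, Cacnb1 (1239 and 585 bp), Cacng3, Kcne2, Kcnj1, Kcnj11, Kcnj3, Kcnj9, Kcnk18, Kcnt2 and Kcnv1. Wide KO-only H3K27me3 peaks lay in Kcng1 (2066 bp) and Kcnh3 (2056 bp), and the widest WT-only peaks in Cacna1b (700 bp), Cacna1a (695 bp) and the upstream flank of Kcnh5 (693 bp). The count with more in KO was 98 of 105 with peaks of at least 300 bp (78.5% of all genes with the mark) and 98 of 109 with lists cut to equal length (69% of all genes with the mark). The KO list is the longer list for the whole genome, and the share of the difference that comes with the length of the list was not tested.

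**Figure D4:**
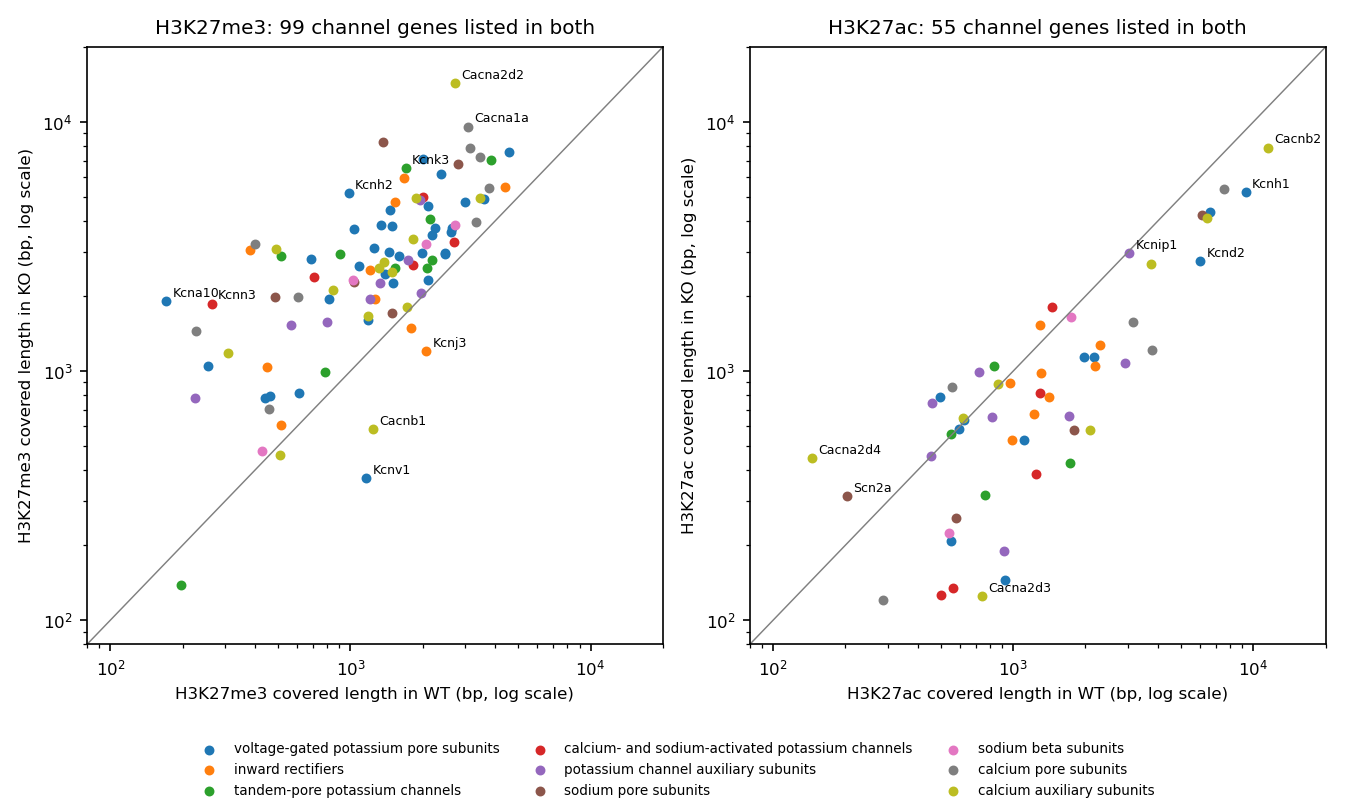
Each point is a channel gene with the mark in both genotypes; axes give the covered length in bp over the gene's interval in WT (x) and KO (y) on log scales, colours give role groups and the line marks equal coverage. For H3K27me3 most of the 99 points lie above the line, up to Cacna2d2 at 14309 bp, and for H3K27ac most of the 55 points lie below it, the median ratio being 0.577.

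The KO-only H3K27me3 peaks over channel genes seldom lay on active marks. Of 212 such peaks 11 overlapped WT H3K27ac (5.19%, 2.62 to 9.09%), against 14.8% of all KO-only H3K27me3 peaks. WT H3K4me1 lay under 13 of them (6.13%), against 13.5%. Of the WT H3K27me3 peaks at channel genes 79.4% were shared with KO (75.1% of all), and of the KO peaks 48.3% were shared with WT (48.6% of all), where shared means an overlap of at least 1 bp.

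The third comparison took H3K27ac alone. It was listed over 83 channel genes in WT (63.4%, against 69.4% of all genes) and 60 in KO (45.8%, against 61.8%). In WT only it was listed over 28 genes (21.4%, 14.7 to 29.4%), against 9.05% of all genes, and in KO only over 5 (3.82%), against 1.47%. The 5 were Kcna6, Kcne3, Kcnk3, Kcnk7 and Scn11a. Every role group held at least 1 of the 28.

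The WT-only genes rested on narrow peaks. The widest H3K27ac peak of such a gene had a median of 218.5 bp, it measured at least 300 bp at 4 of the 28 genes and less than 200 bp at 10. With peaks of at least 300 bp 11 genes were WT-only (5.16% of all genes), with lists cut to equal length 18 (4.1%) and within 1000 bp of a gene end 12 (5.88%). KO-only genes numbered 6 (2.14%), 9 (3.14%) and 4 (2.01%) under the same alternatives. The WT-only and KO-only counts thus lay closer together than with the full lists. The WT list of H3K27ac holds 81112 peaks and the KO list 44484.

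Coverage pointed the same way at the genes that had the mark in both lists, where the median ratio of KO to WT was 0.577 (quartiles 0.415 and 0.997), against 0.833 over all genes. H3K27ac covered more bp in KO at 19 of the 88 channel genes with the mark (21.6%, 13.5 to 31.6%), near the 25.1% of all genes with it. Of the 452 WT peaks at channel genes 24.6% were shared with KO (37% of all WT peaks), and of the 186 KO peaks 61.3% were shared with WT (67.5% of all). The widest KO-only H3K27ac peak, 760 bp, lay inside Kcnip1, followed by those of Scn11a (606 bp) and Scn7a (450 bp). The widest WT-only peaks were 816 bp inside Cacna1c, 691 bp inside Kcnd2 and the 596 bp peak of Kcna3.

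The fourth comparison took H3K4me3, the promoter mark. It was listed over 44 channel genes in WT (33.6%, against 56.2% of all genes) and 66 in KO (50.4%, against 63.4%). In KO only it was listed over 26 genes (19.8%, 13.4 to 27.7%), against 8.54% of all genes, and in WT only over 4 (3.05%), against 1.39%. The state in KO was H3K27me3 only at 13 of the 26 genes, near the share of all 131 channel genes (59, 45%), and H3K27me3 was present in both genotypes at 19, also near that share (99, 75.6%).

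KO-only H3K4me3 peaks were widest at 3 channel genes, with 827 bp inside Cacnb2, 698 bp at the start of Kcng3 and 676 bp at the start of Kcna6 (chr6:126740203-126740878). Kcna6, a delayed rectifier of neurons, had H3K27me3 of 1393 bp in WT and 2450 bp in KO, and a KO-only H3K27ac peak of 221 bp at the edge of the H3K4me3. Kcnq5, a channel of the M-current, had a KO-only H3K4me3 peak of 648 bp at its start inside H3K27me3 of 2480 and 2959 bp. The peak inside Cacnb2 lay on H3K4me1 and H3K27ac of both genotypes.

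WT-only H3K4me3 was listed at Cacng8, Kcng1, Kcnj6 and Kcnv1, over 969, 207, 222 and 578 bp. The widest WT-only peak over a gene with H3K4me3 in both lists was 388 bp inside Kcnq1. At Cacng8 the WT H3K4me3 peak overlapped a KO H3K27me3 peak. All 4 genes had H3K27me3 in both genotypes, as did 75.6% of all channel genes.

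Over all 80 KO-only H3K4me3 peaks at channel genes, WT H3K27me3 overlapped 32.5% (22.4 to 43.9%), against 20.7% of all KO-only H3K4me3 peaks. WT H3K4me1 overlapped 33.8% against 51.5%, and WT H3K27ac 27.5% against 50%. Of the 26 genes 10 had a KO-only peak of at least 300 bp and 12 had none of 200 bp or more. KO-only genes numbered 14 (8.56% of all genes) with peaks of at least 300 bp and 12 (4.77%) with lists cut to equal length. WT-only genes numbered 3 (1.19%) and 8 (2.6%) under the same alternatives. The KO-only and WT-only counts thus lay closer together with lists cut to equal length.

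H3K4me1 was listed over 60 channel genes in both genotypes, over 13 in WT only (9.92%), against 7.33% of all genes, and over 3 in KO only (2.29%), against 1.95%. The 3 were Cacna1i, Kcne4 and Kcnmb4. Of the WT peaks at channel genes 68.6% were shared (62.3 to 74.4%), against 76.5% of all, and of the KO peaks 74.9%, against 75.7%. The widest WT-only H3K4me1 peaks lay in Cacna1h (744 bp) and Kcnd3 (686 bp), and the widest KO-only peaks in Kcne4 (791 bp), Cacna1d (782 bp) and Scn4a (746 bp).

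As for the presence of H3K27me3 alone, 99 channel genes had it in both genotypes, 4 in WT only (3.05%), against 3.84% of all genes, and 9 in KO only (6.87%), against 9.23%. These shares of genes with H3K27me3 in 1 genotype were near those of all genes. No H3K27me3 was listed in either genotype at 19 channel genes, 14.5% of the 131 and 41.2% of all genes.

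A list of 9 channel genes described in endothelial cells, chosen with earlier results of these data known, held genes of every state. Kcnj2, the inward rectifier that sets the resting potential and responds to flow, had all 4 marks over its start in both genotypes. H3K4me3 covered 873 bp in WT and 1204 bp in KO, H3K27ac 1300 and 980 bp, H3K4me1 1184 and 829 bp, and H3K27me3 513 and 610 bp. The peaks over the start of Kcnj2 were shared between the genotypes for all 4 marks, and the WT-only peaks were an H3K27ac peak of 237 bp and an H3K4me1 peak of 335 bp inside the gene.

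Kcnn4 and Kcnn3 are the calcium-activated channels behind endothelium-dependent hyperpolarisation. Kcnn4 had H3K27ac of 1294 bp in WT and 816 bp in KO, H3K4me1 of 1135 and 1324 bp and H3K4me3 of 181 and 344 bp, with KO-only H3K27me3 peaks of 215 and 377 bp in its flanks. Kcnn3 had H3K4me1 of 2447 and 1667 bp, H3K27ac of 498 and 126 bp and H3K27me3 of 264 and 1865 bp. At the start of Kcnn3 WT had H3K4me1 (509 bp), H3K27ac (195 bp) and H3K27me3 (264 bp), and KO had H3K27me3 (390 bp) with peaks of 301 and 1050 bp beyond it.

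Kcnk3, a tandem-pore channel whose loss in people is linked to pulmonary arterial hypertension, had H3K27me3 peaks that summed to 1698 bp in WT and 6526 bp in KO. Its widest was 644 bp in WT and 2288 bp in KO. H3K4me1 of 360 bp was listed in WT only and H3K27ac of 150 bp in KO only, so Kcnk3 counted as both marks in KO on a single narrow peak. Kcnk2, a stretch-sensitive tandem-pore channel, had 8 H3K27ac peaks in WT and 1 in KO (1732 and 428 bp) and H3K27me3 of 2081 and 2592 bp. Kcnk6, of the same family, had H3K27ac of 552 and 560 bp with no H3K27me3, and H3K4me3 of 800 bp in KO only.

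Kcnj8, the pore of the vascular ATP-sensitive channel and common in mural cells, had H3K27me3 only in both genotypes, 1269 bp in WT and 1947 bp in KO. H3K4me1 lay at its start in both (548 and 571 bp), and H3K4me3 of 364 bp was listed in KO only. Cacna1g, a T-type calcium channel described in lung capillary endothelium, had no H3K4me3 in either list and H3K27ac of 288 and 120 bp, none of it overlapping H3K27me3. Over the 9 genes H3K4me1 was listed in both genotypes at 8 and H3K27me3 at 6. The shares for these marks were 45.8% and 75.6% of all channel genes, and 55.5% and 45.8% of all genes. None of the 9 had less H3K27me3 in KO than in WT, and Kcnk6 alone had none. More H3K27me3 in KO was found at 91.1% of all channel genes with the mark and 75.9% of all genes with it. It was thus not particular to the endothelial list.

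**Figure D5:**
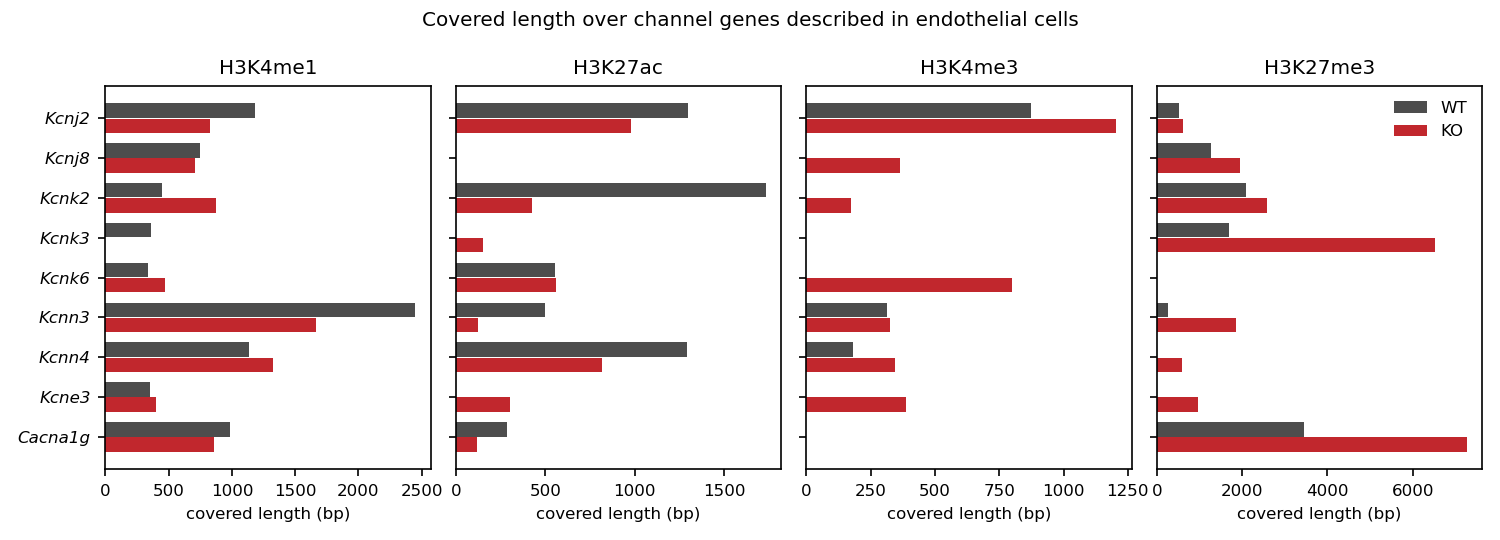
Bars give the covered length in bp of each mark in WT (grey) and KO (red) over the intervals of 9 channel genes described in endothelial cells; a missing bar is no peak. The H3K27me3 bar is longer in KO at 8 of the 9 genes, by most at Kcnk3 (1698 and 6526 bp) and Cacna1g (3451 and 7260 bp), and Kcnk6 has none. H3K27me3 was longer in KO at 91.1% of all channel genes with the mark.

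Channel genes are long, with a median length of 48 kb against 17.5 kb for all genes, and long genes meet more peaks. Within classes of length the share with H3K27me3 and no H3K27ac still stood above that of all genes. Among the 39 channel genes of 50 to 200 kb it was 30.8% in WT and 59% in KO, against 5.87% and 13.4% of all genes of that length. Among the 20 genes under 10 kb it was 45% and 50%, against 9.7% and 14.4%, and among the 26 genes above 200 kb 3.85% and 19.2%, against 2.22% and 10.2%. Above 200 kb the share in WT was 1 gene and that in KO 5, so the longest class shows no clear difference in WT.

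Another protein-coding gene reached into the interval of 50 of the 131 channel genes. Among the 81 with none, 30 had H3K27me3 only in WT (37%) and 43 in KO (53.1%). Among the 50, 7 (14%) and 16 (32%) did. All genes were not split in this way, and without the split 7.99% of them had H3K27me3 only in WT and 13.8% in KO. Members also shared intervals: Kcnip1 overlaps Kcnmb1 in the genome, Cacng8 lies 7321 bp from Cacng6, and Scn2b 8553 bp from Scn4b, so that peaks between them were counted for both. Within 1000 bp of a gene end 61 channel genes had H3K27me3 only in WT, against 11% of all genes.

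No peak of any of the 8 lists lay over Cacng1, a subunit of the skeletal muscle calcium channel, Kcnj13, Kcnrg or Kcnu1, a channel of sperm. In WT 7 channel genes had no peak of any mark and in KO 8, counts that were not made over all genes. Kcnmb3 had only a KO H3K4me3 of 185 bp, which leaves it with neither H3K27ac nor H3K27me3.

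For comparison, a list of 40 other channel and transporter genes of the same physiology (TRP, Piezo, Orai, IP3 and ryanodine receptors, pumps and others), chosen with earlier results known, had H3K27ac only at 10 in WT and 7 in KO, both marks at 27 and 23, H3K27me3 only at 3 and 9, and neither at 0 and 1. Over all genes these states made up 27.8% and 20.6% (H3K27ac only), 41.6% and 41.2% (both), 7.99% and 13.8% (H3K27me3 only), and 22.6% and 24.4% (neither). H3K27ac was listed in WT only at 7 of the 40 and in KO only at 0, against 9.05% and 1.47% of all genes. H3K4me3 was listed at 23 in both genotypes and at 9 in KO alone, against 54.8% and 8.54% of all genes. Among the 40, Piezo1, Piezo2, Orai1, P2rx4, Itpr3 and Trpm7 had H3K27ac only in both genotypes.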

How the data were processed

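ACT-seq libraries of 24 samples, 3 for each genotype and mark, were represented by 8 deposited peak lists. The values the authors deposited are peak positions and widths in bp (unit: other). The lists hold no score and no value of a single sample, so the depth of each sample is unknown here. Per the submitters' processing notes, the tools were MACS2 2.1.2.1 and Bowtie2 2.2.6, with deepTools 3.1.1, SAMtools, cutadapt 1.14 and Trim Galore 0.4.4, and the builds mm10 and R64. What each tool did, how peaks passed and whether replicates were pooled is not given in the sources used here. A longer list gives more genes with a peak, so counts were set beside those of all genes.

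Genes were intersected with peaks over the gene body and 5000 bp on each side, and peaks of WT and KO that met over at least 1 bp were called shared. Covered length is the number of bp under peaks inside the interval. Shares have exact Clopper-Pearson intervals, and no test between genotypes was possible with 1 list in each group. RefSeq promoter windows (GRCm38.p6) matched 97 of the 131 genes. Python 3.11.15, numpy 2.4.6, pandas 2.3.3, scipy 1.17.1 and matplotlib 3.10.9 were used, and the counting was tested on simulated data. Members and lists were chosen with earlier results of these data known.

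Genes named were those whose state differed between genotypes, the 3 of each role group with the most H3K27ac and the 3 with the most H3K27me3, the 3 with the widest genotype-only peak for each mark and direction, the endothelial list, genes with no peak and genes with overlapping intervals. Values of some single genes under this rule are not reported here. The other named genes were chosen after their values were seen. Alternatives were peaks of at least 300 bp, equal numbers of the widest peaks, the gene body with no flank, windows of 1000 bp at the gene ends, and an overlap of at least 50% of the narrower peak. H3K9me3 was not analysed here.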

Additional observations from a re-analysis of the deposited data

How the results depend on the processing

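Of 95 values under alternatives, 58 stayed within 1.5 times the reported value (counts of genes) or inside the reported interval (shares of peaks) and 37 did not. In brackets after a count of channel genes is the share of all genes under the same alternative. With peaks of at least 300 bp, both marks in WT were listed at 37 channel genes (26.7%) and neither at 27 (30.9%). WT-only and KO-only genes numbered 5 (7.43%) and 7 (4.26%) for H3K4me1 and 2 (3.63%) and 14 (11.3%) for H3K27me3. WT-only genes for H3K27ac numbered 11 (5.16%) and KO-only genes for H3K4me3 14 (8.56%). Shared peaks then made up 74.8% (WT H3K4me1), 54.1% (WT H3K27ac), 72.5% (KO H3K27ac), 80% (WT H3K4me3) and 57.1% (KO H3K4me3). Within 1000 bp of a gene end, WT had H3K27ac only at 7 genes (24.7%), H3K27me3 only at 61 (11%), both at 16 (26.8%) and neither at 47 (37.4%). KO had H3K27ac only at 5 (20.1%), both at 10 (27.5%) and neither at 42 (37.1%). KO-only H3K4me1, WT-only H3K27ac and KO-only H3K4me3 came to 6 (2.35%), 12 (5.88%) and 14 (6.9%) genes. With no flank, neither mark was listed at 18 genes (28.6%) in WT and WT-only H3K27me3 at 2 (4.06%). With equal numbers of the widest peaks, H3K27ac was WT-only at 18 genes (4.1%) and KO-only at 9 (3.14%), and H3K4me3 at 8 (2.6%) and 12 (4.77%). Shared peaks were 44.3% and 52.2% of WT and KO H3K27ac, 58.5% of KO H3K4me3, and 70.4% and 59.3% of WT and KO H3K27me3. The class with both marks in WT and H3K27me3 only in KO held 10 (1.83%), 13 (1.85%) and 7 (1.94%) genes with peaks of at least 300 bp, equal numbers and gene ends. These alternatives were chosen after seeing the data. H3K27me3 covered more bp in KO at 98 of 105, 98 of 109 and 93 of 104 genes (78.5%, 69% and 72.8% of all genes with the mark) with wide peaks, equal numbers and no flank, also chosen after seeing the data. The stricter overlap left 8 of 8 shares inside their intervals. The cause of these shifts was not tested. No paired analysis was possible because the lists hold no values of single samples, and leaving out replicates was not run for the same reason.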
